A study of Mus musculus with 7 samples.

Results

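The genes described here carry the calcium cycle of the heart muscle cell. They encode 5 calcium channel subunits of the cell membrane (Cacna1c, Cacna1g, Cacna1h, Cacnb2 and Cacna2d1), the release channel and the calcium-binding protein of the sarcoplasmic reticulum (Ryr2 and Casq2), and the reuptake pump with its small regulators (Atp2a2, Pln and Sln). The 10 genes were chosen by name for their roles, with earlier results of these data known. All non-control probes whose transcript accession maps to one of them were taken. That gave 24 of the 56605 non-control probes on the array, and 10 of the 45616 genes and unnamed transcripts those probes stand for.

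Gene expression was measured on 1-colour Agilent arrays in the heart apex of 7 male C57Bl/6 mice, 1 array per mouse, to ask how loss of AKT1 and AKT2 from cardiomyocytes changes the expression profile of the heart. All 7 mice were heterozygous for the MHC-mercremer transgene, a tamoxifen-inducible Cre recombinase under the αMHC promoter, which is active in cardiomyocytes, and all received 500 µg hydroxytamoxifen per day for 5 days at the age of 3 months. Hearts were taken 10 days after induction, with no further treatment. The 4 control mice carried MHC-mercremer alone, and the 3 AKT1+AKT2 double knockout (DKO) mice were in addition homozygous for floxed AKT1 (exons 6 and 7) and floxed AKT2 (exons 5 and 6). Each control therefore shared the Cre and the tamoxifen, but not the floxed alleles, with the DKO mice.

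Contraction begins when depolarisation opens L-type channels, whose pore Cacna1c encodes and whose membrane traffic and gating the beta subunit (Cacnb2) and alpha2delta subunit (Cacna2d1) support. The calcium that enters opens the ryanodine receptor Ryr2, which lets out calcium stored in the sarcoplasmic reticulum on calsequestrin (Casq2), and the heart relaxes as the SERCA2 pump (Atp2a2) takes it back. Phospholamban (Pln) and sarcolipin (Sln) restrain the pump. The T-type channels Cacna1g and Cacna1h open at more negative voltages and are best known from pacemaking tissue and from the fetal heart.

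Values are log2 fluorescence signals, each array scaled to the same 75th percentile, and a difference is the mean of the DKO hearts minus the mean of the control hearts. Where a gene had several probes, its brightest one stands for it. Other tested probes are given beside it for the 10 genes, for Akt1 and Akt2, and for other calcium handling genes named with a result, except Slc8a1. For Slc8a1, the cell type markers and the nearest genes, other probes are not given. The level of one probe is not compared with that of another. Two-sided limma tests were adjusted by Benjamini-Hochberg over all 23678 genes tested, or over all 30466 probes where a second probe is described, and a gene with an adjusted p below 0.05 is called changed. Of the 24 probes, 22 carried the scanner software's flag for a signal well above background in 3 or more hearts and were tested. They cover 9 of the 10 genes, all but Sln.

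The targeted genes were checked first. All 3 Akt2 probes were lower in the DKO hearts, with differences of -2.05, -2.29 and -0.68 and adjusted p over probes of 0.000203, 0.000295 and 0.0335. The Akt1 probes were not lower, with differences of 0.17 (adjusted p over probes 0.199) and 0.47 (0.139). The sources used here do not place these probes in or outside the deleted exons, so the Akt1 probes do not check the labels. Per array, 50.9% to 55.7% of the probes exceeded background by the scanner software's flag, no probe of the genes described was saturated, and arrays correlated at 0.984 to 0.994 within a group and 0.978 to 0.990 between groups. Cardiomyocyte markers were bright in both groups. The alpha myosin heavy chain gene Myh6 differed by -0.03 ± 0.08 (SE), the troponin gene Tnnt2 by -0.05 ± 0.09 and the ventricular light chain gene Myl2 by 0.10 ± 0.08. Of the other cardiomyocyte markers, 3 had every DKO heart below every control heart, a pattern met by 12.5% of all genes. They are given with the marker lists.

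Promoter sequences of 6 of the 10 genes matched RefSeq (GRCm38.p6), in 9 entries for Cacna1c, Cacna2d1, Cacnb2, Casq2, Pln and Ryr2. The 250 bases before the start site are shown for the called genes among them, Casq2 at chr3:102086165-102086414 and Cacna2d1 at chr5:15934441-15934690, both on the plus strand, because these are the promoters of 2 genes whose transcripts were lower together. Capitals mark E-box letters (CANNTG, searched on both strands).
Casq2: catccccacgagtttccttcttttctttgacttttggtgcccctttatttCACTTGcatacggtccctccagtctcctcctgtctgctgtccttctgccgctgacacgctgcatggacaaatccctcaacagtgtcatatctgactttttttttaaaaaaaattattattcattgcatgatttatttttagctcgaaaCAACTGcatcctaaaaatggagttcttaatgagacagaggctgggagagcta
Cacna2d1: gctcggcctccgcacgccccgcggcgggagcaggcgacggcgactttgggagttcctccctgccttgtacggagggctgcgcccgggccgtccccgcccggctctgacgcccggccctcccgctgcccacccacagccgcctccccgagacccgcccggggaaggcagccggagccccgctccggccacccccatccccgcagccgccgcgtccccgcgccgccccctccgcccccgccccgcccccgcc
The Casq2 window held an E-box at -200 to -195 and another at -52 to -47 from the start site, and 41.6% of its bases were G or C, with 5 CG pairs. In the Cacna2d1 window 82.4% of bases were G or C, with 36 CG pairs, and none of the 5 motifs searched. E-box letters were in 66.2% of all 32851 RefSeq promoter windows of this length. The other letters searched, on both strands, were GTAAACA for FoxO factors (in 3.17% of all windows), CTA and TAG with any 4 bases between them for MEF2 (3.2%), AGATAA for GATA factors (9.99%) and TATAAA for the TATA box (12.4%). FoxO and MEF2 letters in exactly these spellings were in none of the 9 windows. Looser spellings of the motifs were not searched, so the windows may hold them. The only GATA and TATA letters were in the Pln window, where 32.8% of bases were G or C. These matches describe letters in a window and not bound sites.

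Of the 9 genes tested, 3 were called, all lower in the DKO hearts: the T-type channel gene Cacna1g, the calsequestrin gene Casq2 and the channel subunit gene Cacna2d1. Across all genes tested, 4.70% were called, 2.29% as lower and 2.41% as higher. The mean was lower in the DKO hearts for 8 of the 9 genes and higher for Atp2a2 alone, against 53.1% of all genes lower. The median difference of the 9 genes was -0.37, against -0.02 for all genes. In 4 of the 9 (Cacna1g, Casq2, Cacna2d1 and Ryr2) every DKO heart was below every control heart, a pattern met by 12.5% of all genes, and in Atp2a2 every DKO heart was above every control heart, as in 13.2% of all genes, so that groups did not overlap in 5 of the 9 genes against 25.7% of all genes. At the level of probes 4 of the 22 were called, all lower, where 4.40% of all probes were called and 2.07% as lower. These contrasts describe genes chosen with earlier results of these data known, and were not tested. The labels name separate mice, and in bulk tissue fewer cells of a type and less RNA per cell cannot be told apart.

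**Figure D1:**
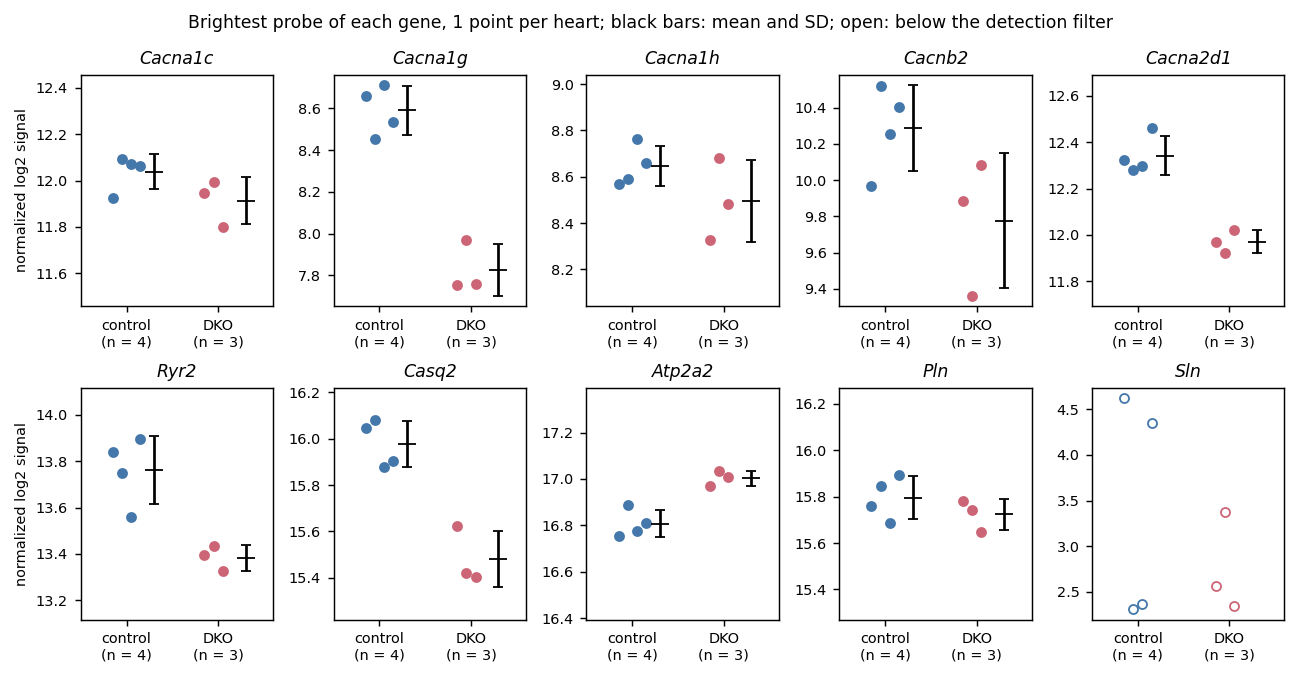
Normalized log2 signal (vertical axes, each spanning its own range of at least 1 log2 unit) of the brightest probe of each gene in the 4 control and 3 DKO hearts, 1 point per heart, with mean and SD as black bars. The points of Cacna1g, Cacna2d1, Ryr2 and Casq2 do not overlap and are lower in the DKO hearts, those of Atp2a2 do not overlap and are higher, and the open points of Sln failed the detection filter.

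Cacna1g, the pore of a T-type channel, showed the largest difference of the 9. Its signal was 8.66, 8.45, 8.71 and 8.53 in the control hearts and 7.75, 7.97 and 7.76 in the DKO hearts. All 3 DKO hearts lay below the lowest control heart, and the spread within each group was small, with an SD of 0.12 in both. The means of 8.59 (n = 4) and 7.83 (n = 3) differed by -0.76 ± 0.10 (SE), with a 95% interval of -0.99 to -0.53, which is 1.70-fold lower (limma adjusted p = 0.0130). A second probe read 7.56, 7.26, 7.46 and 7.16 in control and 6.55, 6.65 and 6.53 in DKO hearts, a difference of -0.78 ± 0.11 (adjusted p over probes 0.0177). The dimmest probe differed by -0.70 ± 0.24, but its groups overlapped and it was not called (0.138). The call of the gene was lost without control 4 (adjusted p = 0.0502) and without DKO 1 (0.0618) and held when any of the other 5 arrays was left out.

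Cacna1h, the other T-type pore of the heart, read 8.57, 8.59, 8.76 and 8.66 in control and 8.33, 8.68 and 8.48 in DKO hearts. DKO 2 lay within the control range. The difference of -0.15 ± 0.10 was not called (adjusted p = 0.401), and its 95% interval of -0.39 to 0.09 does not reach the difference seen for Cacna1g. A dim second probe differed by -0.08 ± 0.25, and one more was well above background on no control array and 1 DKO array and was not tested.

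Conduction system markers were examined beside the T-type channels, since these cells express them. Of 9 listed, 6 were tested, 1 was called lower and none higher, and their median difference was -0.02. The called one was Hcn4, a pacemaker channel gene, at 7.82, 7.84, 7.86 and 7.90 in control and 7.22, 7.51 and 7.21 in DKO hearts, a difference of -0.54 ± 0.09 (adjusted p = 0.0294). The summed linear signal of the 6 markers ranged from 2994 to 3192 in control and from 3105 to 3349 in DKO hearts. Most of that signal was Tbx3, which differed by 0.14 ± 0.08 (adjusted p = 0.335). Isl1 and Vsnl1 were well above background on no array. The part of these markers in the Cacna1g result was not tested.

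Cacna1c, the pore of the L-type channel, did not give one direction across its 4 probes. The brightest probe read 11.93, 12.09, 12.07 and 12.06 in control and 11.94, 11.99 and 11.80 in DKO hearts, a difference of -0.13 ± 0.08 with a 95% interval of -0.32 to 0.07 (adjusted p = 0.375). The other 3 probes had higher means in the DKO hearts. One of them read 6.94, 6.90, 6.71 and 6.89 in control and 7.38, 7.43 and 7.06 in DKO hearts, so that every DKO heart was above every control heart, with a difference of 0.43 ± 0.11 that was not called (adjusted p over probes 0.0819). The remaining probes differed by 0.16 ± 0.15 and 0.15 ± 0.23. Averaging the 4 probes turned the sign of the gene to 0.15 (adjusted p = 0.390), so no direction is given for it. The exons that each probe reads are not given here.

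Cacnb2, the beta subunit that brings the L-type pore to the membrane, read 9.97, 10.52, 10.26 and 10.40 in control and 9.88, 9.36 and 10.08 in DKO hearts. DKO 3 lay above control 1, so the groups overlapped. The difference of -0.51 ± 0.20, 1.43-fold lower, was not called (adjusted p = 0.171), and without DKO 2 it was -0.30. Its second probe also differed by -0.51 ± 0.15 (adjusted p over probes 0.105), from 7.53, 7.84, 7.50 and 7.41 to 7.36, 6.88 and 6.95, with no overlap.

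Cacna2d1, the alpha2delta subunit of the same channel, read 12.32, 12.28, 12.30 and 12.46 in control and 11.97, 11.92 and 12.02 in DKO hearts. The groups were apart, with an SD of 0.08 among control and 0.05 among DKO hearts. The difference of -0.37 ± 0.08, with a 95% interval of -0.55 to -0.19, was 1.29-fold lower and was called (adjusted p = 0.0439). The dimmer probes differed by -0.38 ± 0.13 (adjusted p over probes 0.136) and -0.25 ± 0.14 (0.299), the same direction without a call. Whichever 1 of the 7 arrays was left out, Cacna2d1 lost its call (adjusted p 0.0571 to 0.132), while its difference stayed between -0.40 and -0.33.

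Ryr2, the channel through which the sarcoplasmic reticulum releases calcium, read 13.84, 13.75, 13.56 and 13.89 in control and 13.39, 13.44 and 13.32 in DKO hearts. Every DKO heart was below every control heart. The difference was -0.38 ± 0.10, 1.30-fold lower, and missed the threshold (adjusted p = 0.0759). A second probe read 13.57, 13.52, 13.33 and 13.43 against 13.31, 13.15 and 12.94, a difference of -0.33 ± 0.11 (adjusted p over probes 0.134), again with no overlap. With trended and robust variances Ryr2 was called (adjusted p = 0.0274).

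Casq2, which holds calcium inside the store and acts on the opening of Ryr2, read 16.04, 16.08, 15.88 and 15.91 in control and 15.62, 15.42 and 15.40 in DKO hearts. The highest DKO heart stayed below the lowest control heart. The difference of -0.50 ± 0.09, with a 95% interval of -0.71 to -0.28, was 1.41-fold lower and was called (adjusted p = 0.0349). The second probe differed by -0.60 ± 0.14 (adjusted p over probes 0.0602), from 10.13, 10.04, 9.73 and 10.16 to 9.59, 9.44 and 9.20. Leaving out any 1 of the 7 arrays ended the call of Casq2 (adjusted p 0.0565 to 0.111), with differences of -0.57 to -0.46.

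Atp2a2, the SERCA2 pump that returns calcium to the store, was the gene whose mean was higher in the DKO hearts. It read 16.75, 16.89, 16.78 and 16.81 in control and 16.97, 17.03 and 17.01 in DKO hearts. All DKO hearts were above all control hearts, by a small margin. The difference of 0.20 ± 0.07, with a 95% interval of 0.03 to 0.36, was 1.15-fold higher and was not called (adjusted p = 0.137). The second probe read 13.91, 13.88, 13.45 and 13.87 against 14.22, 14.30 and 13.97, a difference of 0.39 ± 0.14 (adjusted p over probes 0.154), and the third differed by 0.18 ± 0.09 with overlap (0.249). The gene's difference was above 0 in all 12 other processing settings and in each of the 7 runs that left out an array, and it was called in 1 of them, with trended and robust variances (adjusted p = 0.0486).

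Pln, the brake on that pump, read 15.76, 15.84, 15.69 and 15.89 in control and 15.78, 15.74 and 15.65 in DKO hearts. The groups overlapped. The difference of -0.07 ± 0.08 was not called (adjusted p = 0.605), and its 95% interval ran from -0.26 to 0.12. Sln, the regulator of the pump best known from atrial and slow skeletal muscle, was well above background on 1 of 4 control arrays and on no DKO array. Its probe read 4.62, 2.31, 2.36 and 4.35 in control and 2.56, 3.37 and 2.34 in DKO hearts, so no fold change is given.

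The balance of Pln to Atp2a2 was read within each array as the Pln signal minus the Atp2a2 signal. Its absolute size depends on the probes and only its change between groups is read. It was -0.99, -1.04, -1.09 and -0.92 in control and -1.19, -1.29 and -1.36 in DKO hearts. Every DKO heart was below every control heart, with means of -1.01 ± 0.07 (SD, n = 4) and -1.28 ± 0.09 (SD, n = 3). The difference of -0.27 had p = 0.0571 in a two-sided exact permutation test, the smallest that the 35 assignments of 3 hearts among 7 allow. This design cannot reach p below 0.05 in that test, and neither transcript was called alone. After either normexp background correction p was 0.114 in that test, so the groups overlapped there.

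**Figure D2:**
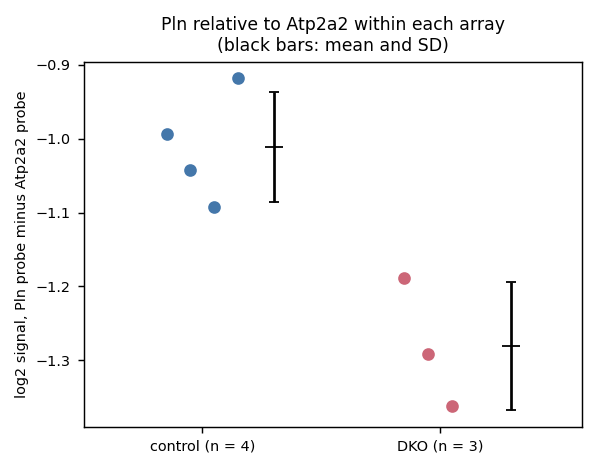
Log2 signal of the Pln probe minus that of the Atp2a2 probe on the same array (vertical axis) in the 4 control and 3 DKO hearts, 1 point per heart, with mean and SD as black bars. The control hearts lie between -1.09 and -0.92 and the DKO hearts between -1.36 and -1.19.

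Read by heart, the median deviation of the 9 genes from their control mean was -0.35, -0.33 and -0.24 in the 3 DKO hearts and between -0.03 and 0.05 in the 4 control hearts. No single DKO heart carried the pattern. DKO 3 held the lowest value of 4 of the 9 genes, DKO 1 and DKO 2 of 2 each and control 1 of 1. All arrays were on 1 slide, in which row 1 held controls 1, 3 and 4 with DKO 3, and row 2 held control 2 with DKO 1 and 2. Within row 1 and row 2 the differences were -0.88 and -0.59 for Cacna1g, -0.54 and -0.56 for Casq2, -0.34 and -0.33 for Cacna2d1, and 0.23 and 0.11 for Atp2a2. With the slide row as a block Cacna1g was called (adjusted p = 0.0498), and Casq2 (0.0621) and Cacna2d1 (0.109) were not.

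**Figure D3:**
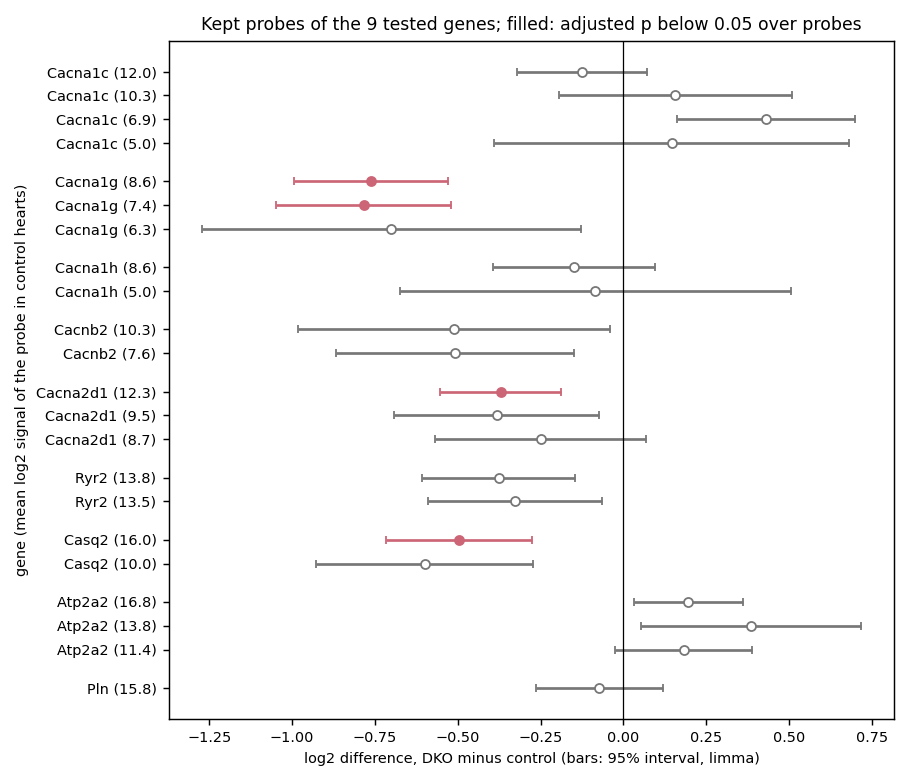
Log2 difference, DKO minus control (horizontal axis), with 95% limma interval for the 22 kept probes of the 9 tested genes, grouped by gene and ordered by brightness, with the mean control signal in parentheses. Filled points are the 4 probes with an adjusted p below 0.05 over all probes, 2 of Cacna1g and 1 each of Cacna2d1 and Casq2, and the Cacna1c probes fall on both sides of 0.

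Other cell types of the apex were followed through marker lists. None of the 10 cardiomyocyte markers was called by limma, 3 had an unadjusted p below 0.05, and their median difference was -0.04. Means were lower in the DKO hearts for 6 of the 10 and higher for 4. The 3 with an unadjusted p below 0.05, named after their values were seen, had every DKO heart below every control heart. That was the direction of most calcium cycle genes and a pattern met by 12.5% of all genes. These 3 were the titin gene Ttn (-0.32 ± 0.07, adjusted p = 0.0560), the cardiac actin gene Actc1 (-0.24 ± 0.08, 0.140) and the transcription factor gene Nkx2-5 (-0.24 ± 0.09, 0.163). Of 4 ventricular markers, 3 had a higher and 1 a lower mean in the DKO hearts, with a median of 0.10. The lower one, the transcription factor gene Irx4, was the only one called (-0.44 ± 0.08, adjusted p = 0.0332). The summed signal of the 4 was 605068 to 684988 in control and 666308 to 720034 in DKO hearts. All 10 endothelial markers had higher means in the DKO hearts, none called (2 at an unadjusted p below 0.05), with a median of 0.20 and a summed linear signal of 61078 to 72470 in control and 74136 to 75544 in DKO hearts. The 11 smooth muscle and pericyte markers had a median of 0.32 with 1 called higher, Myh11 (0.63 ± 0.14, adjusted p = 0.0487). Of these 11, 8 had an unadjusted p below 0.05, against 25.5% of all genes. In 7 every DKO heart was above every control heart and in 2 below, against 13.2% and 12.5% of all genes. Among the 8, Smtn (-0.71 ± 0.16, adjusted p = 0.0553) and Acta2 (-0.41 ± 0.14, 0.128) were lower in the DKO hearts. The summed signal of the 11 was 99545 to 118229 in control and 92998 to 103083 in DKO hearts. The median was 0.17 for 8 fibroblast, 0.13 for 8 macrophage and 0.06 for 6 neuron and Schwann cell markers, with none called and 2, 1 and 4 at an unadjusted p below 0.05. The last 4 went both ways without overlap. Snap25 (-0.51 ± 0.13) and Uchl1 (-0.35 ± 0.09) were lower in the DKO hearts, and S100b (0.37 ± 0.12) and Sox10 (0.30 ± 0.08) were higher. The summed signals in control and DKO hearts were 108353 to 114488 and 113463 to 133853 for fibroblast markers, 15869 to 17752 and 15330 to 20655 for macrophage markers, and 17493 to 20119 and 11706 to 14916 for neuron and Schwann cell markers. Most of the neuron and Schwann cell sum was Snap25. Atrial markers bear on Sln. Bmp10 was above background on no array, the light chain gene Myl7 on 3 control and 1 DKO arrays, and Myl4 differed by -0.43 ± 0.15 (adjusted p = 0.147), whereas the natriuretic peptide gene Nppa, which ventricular muscle can also express, differed by 0.82 ± 0.21 (0.0788). Of the 9 atrial markers 7 were tested, 4 with a higher and 3 with a lower mean, with a median of 0.12 and 4 at an unadjusted p below 0.05. The potassium channel gene Kcnj3 was called (-0.89 ± 0.11, adjusted p = 0.0122), and Nr2f2 (0.19 ± 0.07, 0.153), Dkk3 (0.21 ± 0.23, 0.606) and Stard10 (0.12 ± 0.12, 0.588) were not. The summed signal of the 7 was 65578 to 109874 in control and 126137 to 188065 in DKO hearts, nearly all of it Nppa, and without Nppa it was 2580 to 2769 in control and 2103 to 2512 in DKO hearts. What part these lists have in the differences of the calcium genes was not tested.

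Of 102 other genes, listed in 7 groups by role, 86 were tested, 2 were called higher and 2 lower, or 4.65% against 4.70% of all genes. Means were lower for 45 and higher for 41, with a median difference of -0.02, the same as for all genes. The groups ranged from a median of -0.14 for kinases, anchors and phosphodiesterases (11 of 16 lower) and -0.10 for extrusion genes (6 of 7 lower) to 0.10 for reuptake genes.

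**Figure D4:**
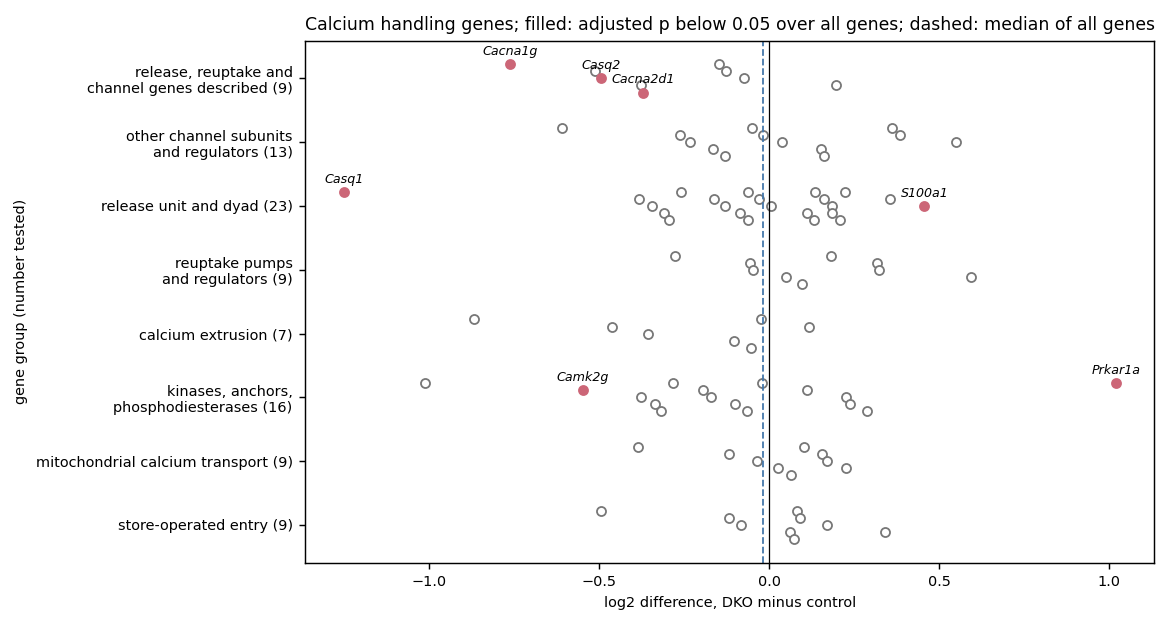
Log2 difference, DKO minus control (horizontal axis), of the 9 tested genes and of 86 other calcium handling genes in 7 groups, 1 point per gene, filled and named where the adjusted p over all genes was below 0.05. The dashed line is the median of all genes at -0.02, and the points of the 9 genes lie mostly to its left.

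Among 13 other channel subunits and channel regulators none was called, and 3 had an unadjusted p below 0.05. Rrad, a small G protein that inhibits L-type channels, read 11.70, 11.68, 11.93 and 11.86 in control and 12.35, 12.56 and 12.12 in DKO hearts, a difference of 0.55 ± 0.12 (adjusted p = 0.0566). The groups did not overlap. The alpha2delta gene Cacna2d2 differed by -0.61 ± 0.15 (adjusted p = 0.0655), the same direction as Cacna2d1. A further 9 of the 22 listed, among them Cacna1e and Cacng1, were below the detection filter.

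Of 23 tested genes of the release unit and the dyad, where the channel and Ryr2 face each other, 1 was called higher and 1 lower, with a median of -0.03. S100a1, a calcium sensor that binds Ryr2 and SERCA2, read 14.39, 14.30, 14.30 and 14.16 in control and 14.80, 14.77 and 14.66 in DKO hearts. Its difference of 0.46 ± 0.08 was called (adjusted p = 0.0330), but not after quantile normalization (0.33, adjusted p = 0.116), on the authors' deposited log2 values (0.0535) or after either normexp correction (0.0543 and 0.153). Casq1, the calsequestrin of skeletal muscle, read 7.24, 7.18, 7.08 and 7.70 in control and 6.26, 6.39 and 5.51 in DKO hearts, a difference of -1.25 ± 0.24 that was called (0.0386). Its size was -0.70 and -0.64 after the normexp background corrections. The call of Casq1 was lost after quantile normalization (0.0512), on the authors' deposited log2 values (0.0504) and whichever array was left out (0.0545 to 0.0945), and that of S100a1 was lost without any array but control 1. Of 8 skeletal muscle markers 4 were above the filter, none called and 2 at an unadjusted p below 0.05, with a median of -0.26. Their summed signal was 6421 to 8710 in control and 3938 to 6181 in DKO hearts. Most of it was Tnnt1, which differed by -0.63 ± 0.22 (adjusted p = 0.143). The part of these markers in the Casq1 result was not tested. Trdn, the triadin gene that ties Casq2 to Ryr2, was well above background on all 7 arrays but was left out because a spot was flagged as an outlier, Ryr1 was above background on none, and no probe matched Ryr3.

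None of 9 other genes of reuptake and luminal calcium binding was called, with a median of 0.10. The chaperones calreticulin (Calr, 0.59 ± 0.17, adjusted p = 0.0914) and calnexin (Canx, 0.32 ± 0.10, 0.124) had the smallest p values there, and neither gene's groups overlapped in the brightest probe. A second Canx probe differed by 0.18 ± 0.09 with overlap (adjusted p over probes 0.269). None of 7 extrusion genes was called. Slc8a1, the main cardiac sodium-calcium exchanger, named for its role after its value was seen, differed by -0.10 ± 0.18 (adjusted p = 0.745), and Slc8a3 by -0.46 ± 0.13 (0.0885), with a dim second probe at -0.04 and the gene at -0.31 without DKO 3. Slc8a2 differed by -0.87 ± 0.78 (0.521), a value set by control 1, without which it was -0.08.

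Of 16 kinases, anchors and phosphodiesterases that act on calcium handling 1 was called in each direction. Prkar1a, a regulatory subunit of protein kinase A, read 12.91, 13.38, 13.58 and 13.38 in control and 14.41, 14.43 and 14.15 in DKO hearts. All DKO hearts were above all control hearts. The difference of 1.02 ± 0.16 was 2.03-fold higher (adjusted p = 0.0246), and a second probe was also called at 0.79 ± 0.11 (adjusted p over probes 0.0171). Camk2g, a gene of calmodulin kinase II, read 12.96, 12.81, 12.73 and 12.87 in control and 12.17, 12.27 and 12.44 in DKO hearts, a difference of -0.55 ± 0.10 (adjusted p = 0.0294). The Prkar1a call held without control 1, 2 or 3 and was lost without control 4 or any DKO heart (0.0563 to 0.0890), and the Camk2g call held without control 2 or DKO 3 and was lost without any other array (0.0523 to 0.0974).

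None of 9 mitochondrial transport genes and none of 9 store-operated entry genes was called. In the first group the median was 0.06, and the gene with the smallest p was Letm1 (-0.38 ± 0.13, adjusted p = 0.122). In the second the median was 0.07, with Trpc1 at 0.34 ± 0.10 (adjusted p = 0.106) and Trpc6 at -0.49 ± 0.16 (0.114), which was -0.31 without DKO 3. In the 5 groups without a call, unadjusted p was below 0.05 for 3 of 13 channel, 3 of 9 reuptake, 1 of 7 extrusion, 2 of 9 mitochondrial and 2 of 9 store-operated genes, and for 25.5% of all genes. In the groups with calls it was below 0.05 for 8 of 23 release unit and dyad genes and 6 of 16 kinases, anchors and phosphodiesterases. Together that was 25 of the 86 other calcium handling genes tested.

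For each called gene the 3 genes with the most similar course over the 7 arrays were taken, by the root mean square difference of the deviations from the own control mean. Nearest to Cacna1g were Tafa3 (0.0622), Slc26a6 (0.110) and Rhbdl1 (0.116). Nearest to Casq2 were Mal (0.0414), Timm22 (0.0499) and Rxrg (0.0536). Nearest to Cacna2d1 were Ybx2 (0.0379), Abracl (0.0491) and Gpt2 (0.050). These lists were drawn from all named genes tested, over 7 arrays, and likeness of course is all that they record.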

How the data were processed

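Total RNA (100 ng per sample) was labelled with Cy3 and hybridised to 1-colour Agilent arrays, per the labels' protocols. The authors deposited Feature Extraction 12.0.3.1 output with the processed signal, a background-subtracted linear intensity per spot, per the file headers. They also deposited a value table on a log2 scale. Against quantile-normalized scanner values centred per gene it gave r of 0.998 to 0.999 and slopes of 0.992 to 1.00, and each column has a median of 0; the centring used by the authors is inferred from this match and not stated.

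Control spots and outlier-flagged spots were left out, the log2 processed intensity was scaled to the 75th percentile of each array, and spots of a probe were averaged. Probes well above background on at least 3 of 7 arrays, with no missing value, were kept (30466 probes, 23678 genes, of which 14718 had a symbol). Of 56605 probes, 32989 were named through their accession (RefSeq table of GRCm38.p6; the arrays' own annotation is mm9). Groups were compared with limma 3.58.1 (lmFit and eBayes) in R 4.3.3. The test was also tried on simulated data, and the outcome of that trial is not given here. Precision is limited by there being 7 arrays.

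The members and gene lists were chosen with earlier results of these data known. Named genes were all 10 members, the targeted genes, the defining markers named in the text, the called genes of each other list or, with fewer than 2 called, those with the smallest p up to 2, and the 3 nearest genes of each called member. One gene that this rule names is not reported here. Irx4, Kcnj3 and Myh11, as single calls of their lists, and Ttn, Actc1, Nkx2-5, Nr2f2, Dkk3 and Stard10 were named after their values were seen. The same holds for Smtn, Acta2, Tbx3, Tnnt1, Snap25, Uchl1, S100b and Sox10. Alternatives were other normalizations, filters, probe rules, variance models, blocks, the authors' log2 values and each array left out.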

Additional observations from a re-analysis of the deposited data

Results flagged for a closer look

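A probe or difference in which 1 of the 4 control hearts stood far from the other 3 was looked for in 39 items, and 2 were found. Chance alone marks about 5% of such groups. In the second Atp2a2 probe control 3 read 13.45, against 13.87 to 13.91 in the other control hearts, and all 3 DKO hearts were still above those. In Slc8a2 control 1 read 10.36, against 7.07 to 7.37 in the other control hearts and 7.09 to 7.22 in the DKO hearts.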

How the results depend on the processing

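The 3 called calcium cycle genes were the same with quantile normalization, median centring, the stricter filter on all 7 arrays, the authors' values, array weights and normexp with quantile normalization. Normexp with the 75th percentile left 2 of them (not Casq2), and averaging the probes of a gene left 2 (not Cacna2d1). The count moved to 5 with trended and robust variances, 4 called lower and Atp2a2 called higher. It was 1 with the slide row as a block and 0 with no filter, where 45553 genes were tested. With 1 array left out the limma count was 0 to 1. Called probes numbered 2 with normexp and the 75th percentile, 7 with trended variances, 0 with no filter, 0 with the slide row as a block and 0 to 2 with 1 array left out. Among all probes, 1339 were called in the main fit. In those settings 678, 2506, 139, 321 and 218 to 1098 were called, in the same order. Other calcium handling genes called numbered 7 with the filter on all 7 arrays, 11 with trended variances, 8 with array weights, 0 with no filter, 0 with the slide row as a block and 0 to 2 with 1 array left out. Among the 9 genes, 6 had an unadjusted p below 0.05 in the main fit, where 25.5% of all genes did. The count was 5 with no filter and 4 with the slide row, and the share of all genes in those settings is not given. Genes called in all numbered 1114 of 23678 in the main fit. They numbered 121 of 45553 with no filter and 1352 of 20818 with the filter on all 7 arrays. Of 23678 genes, 549 and 655 were called with normexp, 288 with the slide row, 2028 with trended variances and 1680 with array weights. With 1 array left out the number was 160 to 1127. Deviations of same-numbered control and DKO hearts correlated at 0.129, 0.00691 and 0.0325, and 3 of the 6 hearts correlated best with their own number. No chance level was worked out for that count, so it does not decide whether the numbers are pairs. The main test did not take the numbers as pairs. The replicate number as a block left 0 genes of the 9 (4 at an unadjusted p below 0.05), 0 probes and 0 other calcium genes called, with 1 gene called in all, and the difference of Pln minus Atp2a2 was -0.24. That difference ranged from -0.37 to -0.18 over other settings and from -0.31 to -0.23 with 1 array left out. With either normexp correction its exact permutation p rose to 0.114, with overlapping groups. Averaging probes turned Cacna1c to 0.15. Of 437 combinations of 23 genes and 19 settings, 360 kept direction and call, 66 lost a call, 10 gained one and 1 changed sign. Except for the choice of probes and of samples, the cause of these changes was not tested. The files have a median but no mean spot signal, so normexp was run on the median, a choice made after seeing the data, and the planned version on the mean signal was not run. Sln passed the background flag on 1 of 7 arrays, and differences in dim probes rest on signals near background.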
